A study of Drosophila melanogaster with 4 samples.

Results

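Long regions of Abrupt (Ab) binding are described here, that is, the 425 of 8881 Ab peaks in the *ab* list that spanned at least 500 bp. They were chosen by length alone, the end minus the start of each deposited interval, and made up 4.79% of that list. All 425 are accounted for, and no filter was applied to them. Because length chose them, lengths are given as a description, and any measure that grows with the length of an interval is given beside the same measure in shorter peaks or per bp.

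Ab is a transcription factor of the BTB-zinc finger family, proteins that bind DNA through zinc fingers and contact partners through the BTB domain. It is known in *Drosophila* for roles in neuronal and muscle development and in the timing of steroid-dependent cell migration. In the eye/antennal disc, the larval epithelium from which the adult eye and antenna form, endogenous Ab is found in the undifferentiated progenitor region of the eye. The study also reports it in the antennal disc, the ocelli and the peripodial membrane. In chromatin immunoprecipitation with sequencing (ChIP-Seq), a binding site is read as an interval with more reads than the input DNA, and a wide interval can hold 1 broad site or several sites too close for the caller to part.

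The study asked where Ab binds when it is overexpressed alone and when it is overexpressed in cells that have lost *scrib*, a regulator of apico-basal polarity. Mosaic discs with clones of UAS-ab55 were used for the *ab* sample, and clones that also carried FRT82B,scrib1 for the *scrib-+ab* sample, both taken at about day 5 after egg laying. In both genotypes the clones were made with the eyeless-driven FLP and expressed *ab* from the tubulin-driven GAL4, so that Ab was made outside its normal control and the surrounding tissue of the same disc went into the same pull-down. Each genotype had 1 pull-down library and 1 input library, and each library pooled 3 to 6 immunoprecipitations of about 100 discs, cross-linked in 1.8% formaldehyde and sheared to about 500 bp. Neither genotype has a second library, so no value below has a replicate error and no test between the genotypes was possible. The peak lists hold neither reads nor enrichment, only an arm, a start, an end and a constant score of 1, so the depth behind a region is unknown. Shares are given with exact (Clopper-Pearson) 95% intervals, which cover counting error only and treat regions as independent, which neighbouring regions are not. Positions are on dm3 (BDGP Release 5), counted from 1 with both ends included. No dm3 sequence or annotation was used here, so no sequence of a region is shown.

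The long regions spanned 500 to 2130 bp, with a median of 613 bp and an interquartile range of 544 to 720 bp. Of the 425, 188 were under 600 bp, 120 were 600 to 699 bp, 85 were 700 to 999 bp and 32 were 1000 bp or more. Just inside it were 3 regions of 500 bp (2R 8664176 to 8664675, 2R 8878352 to 8878851 and 3R 15107540 to 15108039), and just outside it were 1 peak of 499 bp (3L 13021968 to 13022466) and 4 of 498 bp. Between 480 and 499 bp there were 63 peaks, and between 500 and 519 bp there were 50. Together the long regions covered 285012 bp, which is 16.5% of all bp in *ab* peaks.

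Long regions lay on all 5 major arms, and the X chromosome had the fewest. There were 91 on 2L, 86 on 2R, 93 on 3L, 92 on 3R and 63 on X. Relative to each arm's own *ab* peaks, the long share was 5.88% on 2L (95% interval 4.76 to 7.17%), 5.20% on 2R (4.18 to 6.38%), 4.93% on 3L (3.99 to 6%), 4.57% on 3R (3.70 to 5.58%) and 3.54% on X (2.73 to 4.51%). The intervals of 2L and X do not overlap, while each of the other arms overlaps both of its neighbours in this order. X held 20% of all *ab* peaks and 14.8% of the long ones, although its *ab* peaks were the densest, at 79.4 per Mb between its first and last peak. The density of long regions ran from 2.81 per Mb on X to 4.11 per Mb on 2L. Arm 3R held 21.6% of the long regions (17.8 to 25.9%), close to its 22.7% of all *ab* peaks. Median lengths of the long regions differed little between arms, from 597 bp on X to 627 bp on 2L.

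Along an arm the long regions were uneven. When each arm's span was divided into 5 parts of equal length, numbered from the lowest coordinate, the long share of *ab* peaks on 3L was 1.46% in part 2 (5 of 342 peaks) and 7.69% in part 4 (37 of 481 peaks). On 3R it ran from 3.46% in part 1 to 6.26% in part 3. On X no part was above 4.64%, although single windows were. Over windows of 1 Mb the median was 3 long regions, 13 of 121 windows held none, and the richest held 12, at 3L 10000001 to 11000000, where 11.2% of 107 *ab* peaks were long. The window at X 1000001 to 2000000, which includes both regions of *br*, held 9 long regions among 78 *ab* peaks (11.5%), and the next on that arm by this share held 7 among 90 (7.78%).

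**Figure D1:**
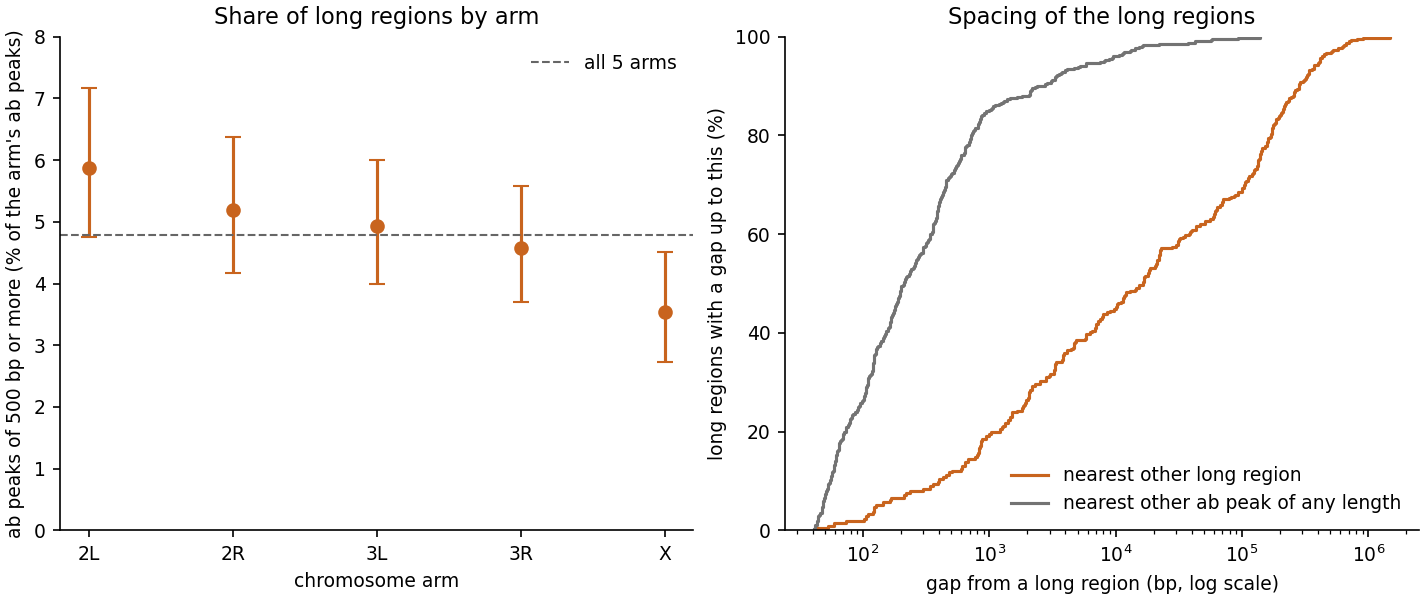
Left, the share of each arm's ab peaks that were at least 500 bp long, in percent, with exact 95% intervals, and a dashed line at 4.79% for all 5 arms; 2L stands at 5.88% and X at 3.54%. Right, for the 425 long regions, the cumulative percentage whose gap to the nearest other long region (orange) or to the nearest other ab peak of any length (grey) is at most the value on the log axis in bp; the curves pass 45.2% and 96% at 10 kb.

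Long regions often lay near one another. The nearest other long region was within 1 kb for 83 of the 425 (19.5%, 15.9 to 23.6%), within 10 kb for 192 (45.2%, 40.4 to 50%) and more than 100 kb away for 132 (31.1%). The median gap was 16458 bp, and its lower quartile was 1847 bp. For comparison, 1685 of the 8456 shorter *ab* peaks (19.9%, 19.1 to 20.8%) had a long region within 10 kb. Among all *ab* peaks, 89.9% had another *ab* peak of any length within 10 kb, and among the long regions 96% did. Ab peaks of any length were also more numerous around the long regions than around shorter peaks. Within 1 kb of a long region there were on average 1.71 other *ab* peaks, and within 5 kb there were 4.50, against 1.24 and 3.02 for peaks under 500 bp. With only neighbours under 500 bp counted, the means were 1.50 and 3.92 around long regions and 1.16 and 2.83 around shorter peaks. No other *ab* peak lay within 1 kb for 14.8% of the long regions and for 34% of the shorter peaks.

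The smallest gap between *ab* peaks was 41 bp, 1 bp above the gap that the peak caller was set to bridge, and several long regions were parted by little more than that. On 3L, a region of 525 bp (10658924 to 10659448) and one of 550 bp (10659491 to 10660040) lay 42 bp apart. At *ex*, regions of 506 bp and 1031 bp lay 53 bp apart, and at *Trl*, regions of 638 bp and 790 bp lay 73 bp apart. On X, regions of 739 bp (1292840 to 1293578) and 640 bp (1293638 to 1294277) lay 59 bp apart. Whether such neighbours are separate sites or parts of 1 wider one cannot be told from the intervals.

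With long regions linked wherever the gap was at most 10 kb, 233 stood alone (54.8%), 49 runs held 2, and 24 runs held 3 or more, with 94 long regions (22.1%) in those 24 runs. Of these runs, 7 lay on 3L, 6 on 2L, 5 on X, 3 on 2R and 3 on 3R. The largest held 6 long regions each. One of them, on 3R over 19.5 kb from 12060700, had lengths of 1062, 613, 618, 625, 879 and 536 bp, and the other, on 2L over 14.4 kb from 2161370, had lengths of 525, 705, 744, 638, 609 and 614 bp. Among the runs of 5 or 6, the most filled was on 2L from 12003076 to 12012811, where 5 long regions of 2130, 1293, 523, 1151 and 1454 bp filled 6551 bp of 9.74 kb (67.3%). The most filled of all 24 was a run of 3 on 2L over 3.23 kb from 11806100, with 1186, 868 and 533 bp (80%), followed by the run of 3 at *Trl* (74.5%). The run from 12003076 held 3 of the 10 longest *ab* regions, and only 1 shorter *ab* peak lay between its members. No gene model was at hand for the runs from 12060700, 2161370 and 12003076. Another 5 runs of 5 lay on 2L, 2R, 3L, 3R and X, and those at *ex*, *Psc*, the *E(spl)* complex and *CG6854* are described with their genes. A further run of 5, on 2L over 17.2 kb from 5288625, was less dense, with gaps of 1514 to 7801 bp.

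**Figure D2:**
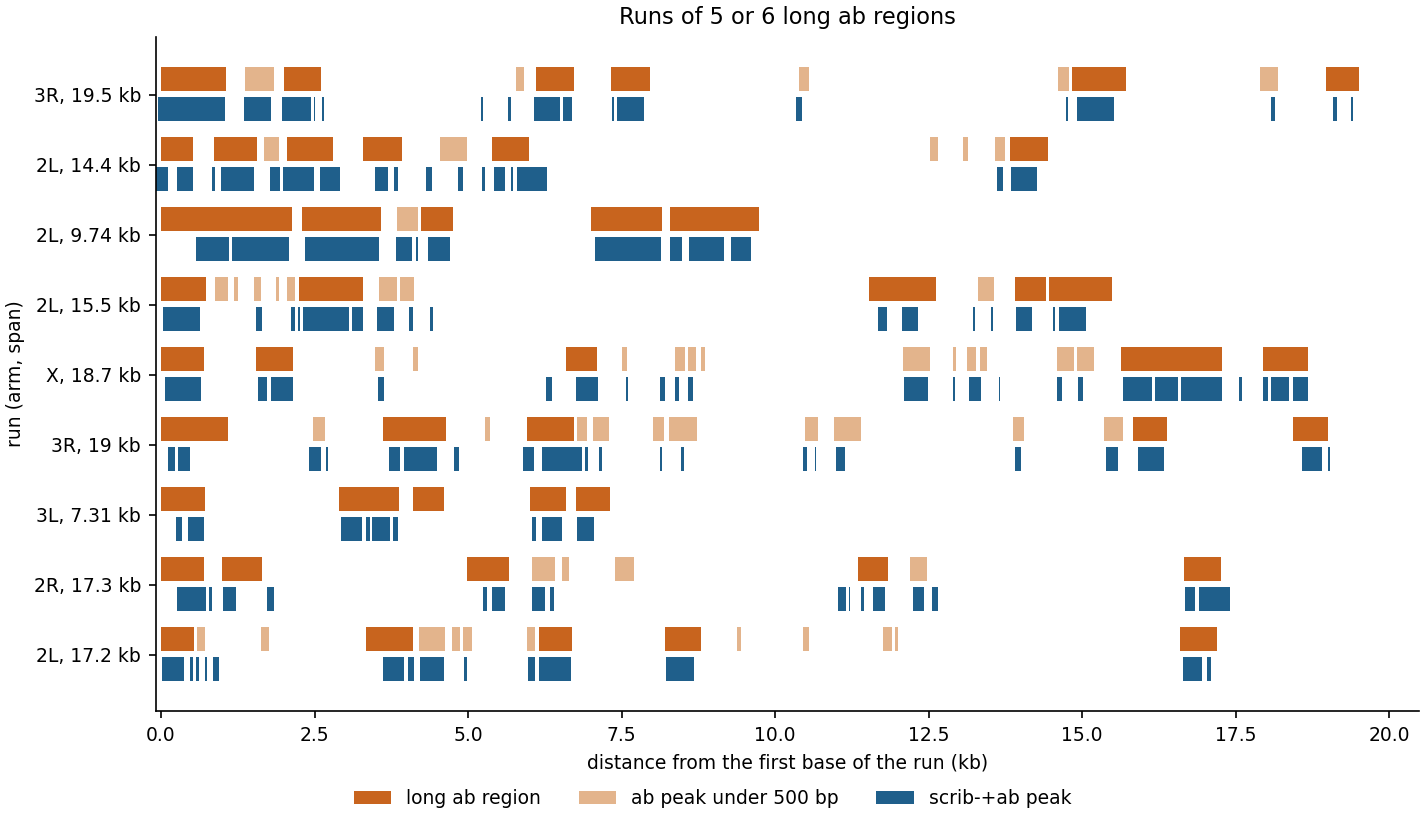
The 9 runs of 5 or 6 long ab regions with gaps of at most 10 kb, drawn to scale as distance in kb from the first base of each run, with long ab regions in orange, shorter ab peaks in pale orange and scrib-+ab peaks in blue. The run of 9.74 kb on 2L is the most filled of these 9, and in the run of 7.31 kb on 3L the region of 506 bp has no scrib-+ab peak over it.

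Nearly all long regions of the *ab* sample carried peaks in the *scrib-+ab* sample, and most carried several. Of the 425, 409 (96.2%, 94 to 97.8%) shared at least 1 bp with an *scrib-+ab* peak, against 59.1% of all *ab* peaks and 57.3% of those under 500 bp. At least 2 *scrib-+ab* peaks lay over 283 (66.6%, 61.9 to 71.1%), against 11% of all *ab* peaks, and at least 3 over 112 (26.4%), against 1.86%. The commonest number was 2, over 171 long regions, followed by 1 over 126, 3 over 83, 4 over 23, 0 over 16, 5 over 4 and 6 over 2. A longer interval has more room to meet a peak, so these shares cannot be read as a property of long regions apart from their length. Per kb of interval the order is the other way round, with 2.95 *scrib-+ab* peaks per kb of long region and 3.87 per kb of shorter *ab* peak. A peak that shares 1 bp counts whole in this rate, which raises it for short intervals. It fell from 5.02 per kb for *ab* peaks under 100 bp to 2.52 at 1000 bp or more. This rate too therefore depends on length and does not show that *scrib-+ab* peaks are sparser in long regions.

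Measures taken over windows of fixed width also differed. In a window of 101 bp at the centre of each interval, an *scrib-+ab* peak was met in 349 of the long regions (82.1%, 78.1 to 85.6%) and in 54% of shorter *ab* peaks (52.9 to 55%). That share climbed with the length of the *ab* peak, from 34.8% for peaks under 100 bp through 56.4% at 100 to 199 bp, 65% at 200 to 299 bp, 74.6% at 300 to 399 bp and 76.4% at 400 to 499 bp to 80.9% at 500 to 599 bp. Above 500 bp the intervals of the classes overlap, with 79.2% at 600 to 699 bp (70.8 to 86%), 87.1% at 700 to 999 bp (78 to 93.4%) and 87.5% at 1000 bp or more (71 to 96.5%). No step at 500 bp was seen. For the 2585 *ab* peaks under 100 bp the window ran past the interval, whereas in long regions it lay inside. The flanks held more *scrib-+ab* peaks too, on average 5.57 within 5 kb beyond the edges of a long region, not counting those over it, against 3.54 for shorter *ab* peaks. This mean also rose with length below the limit, from 3.38 for *ab* peaks under 100 bp to 4.58 at 400 to 499 bp, and was 5.51 at 500 to 599 bp. Other *ab* peaks were likewise more numerous within 5 kb, 4.50 on average against 3.02.

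In bp, *scrib-+ab* peaks covered 159734 of the 285012 bp of long region, or 56%, against 38.4% of the bp in shorter *ab* peaks. The median long region was covered over 58.1% of its length, with an interquartile range of 40.2 to 73.6%, or over 358 bp. At least 50% of the length was covered in 263 long regions (61.9%, 57.1 to 66.5%), against 35.2% of all *ab* peaks. Cover of 75% or more was found in 96 (22.6%, 18.7 to 26.9%), against 17.3% of all *ab* peaks, full cover in 1, and cover under 10% in 28, of which 16 had none. The covered share of bp climbed with length among shorter *ab* peaks too, from 24% under 100 bp through 40.9% at 200 to 299 bp to 49.2% at 400 to 499 bp. It was 53.3% at 500 to 599 bp, 53.3% at 600 to 699 bp, 57.9% at 700 to 999 bp and 65.5% at 1000 bp or more. Higher cover thus did not set in at 500 bp. Across the 425 regions, Spearman's rho of length with covered bp was 0.48 and with the covered percentage 0.104. Covered bp are a part of the length and bounded by it, so a positive value of the first is partly built in. These coefficients are over regions of the same 2 libraries, which are not replicates. Cover was similar between arms, from 53% of bp on 3R to 58.3% on 2R.

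The *scrib-+ab* peaks lay towards the middle of the long regions. With each region cut into 10 equal parts, mean cover was 36% in the first part, 63.3% and 63.7% in the middle ones and 37.3% in the last. The midpoint of the *scrib-+ab* peaks over a region, from the first covered base to the last, lay a median of 38 bp from the midpoint of the region. That span cannot leave the region, so the wider it is, the closer the midpoints must lie. The distance is thus no separate sign of a central position. In 159 regions (37.4%) an *scrib-+ab* peak ran beyond an edge of the *ab* region.

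**Figure D3:**
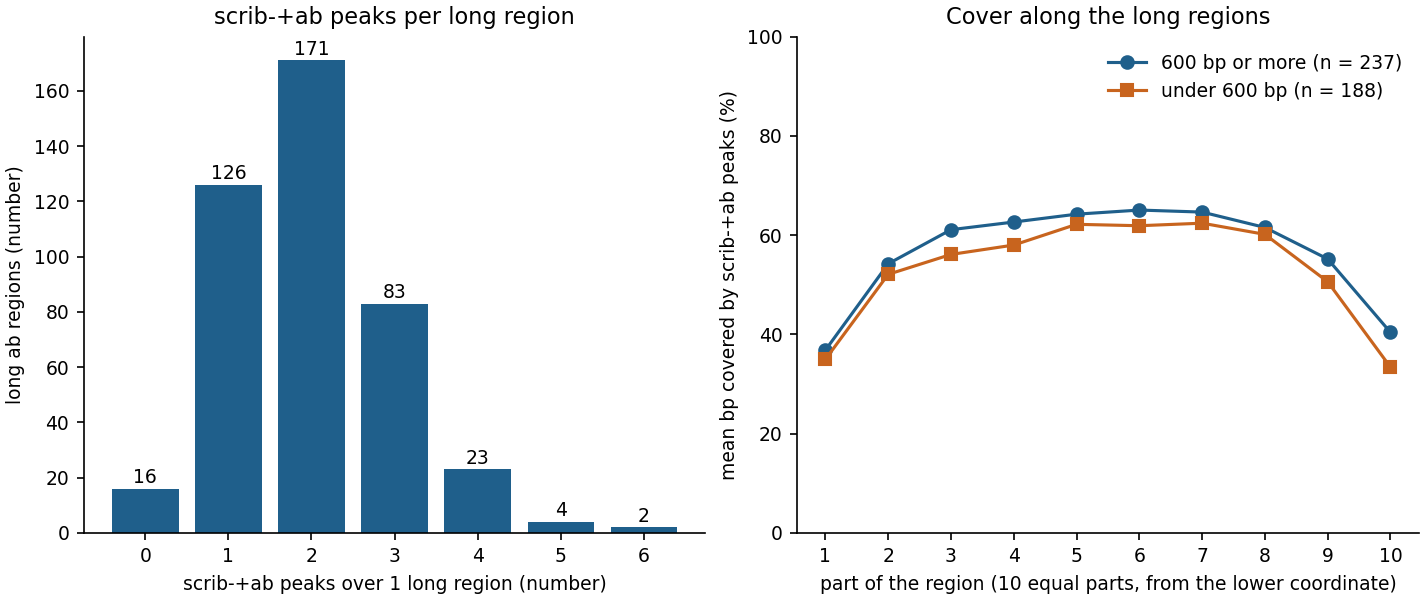
Left, the number of long ab regions by the number of scrib-+ab peaks that share at least 1 bp with them, with the count above each bar; 171 regions have 2 and 16 have none. Right, the mean percentage of bp under scrib-+ab peaks in each of 10 equal parts of the region, for the 188 regions under 600 bp and the 237 regions of 600 bp or more; over all 425 it is 36% in the first part and 63.7% in part 6.

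What stood as 1 interval in *ab* thus often stood as several in *scrib-+ab*, mostly parted by short gaps. With *scrib-+ab* peaks joined across gaps of up to 100 bp, the share with 2 or more fell from 66.6% to 30.8%. Shorter intervals are also a feature of the whole *scrib-+ab* list, whose median length was 69 bp against 151 bp for *ab*. The long regions were met by 841 *scrib-+ab* peaks, 7.72% of that list, and 0 of these peaks reached over more than 1 long region. The median of their lengths was 142 bp, with quartiles at 75 and 268 bp, and that of the other *scrib-+ab* peaks was 66 bp. Only 6.78% of them were shorter than 40 bp, which is 1 read as the caller was told, against 24.7% of the others. Between neighbouring *scrib-+ab* peaks over the same region there were 432 gaps, with a median of 74 bp, and 284 of them (65.7%) were at most 100 bp. The longest *scrib-+ab* peak over a region had a median of 263 bp, and it was longer than the whole *ab* region in 9 cases. In the other direction, 56 of the 67 *scrib-+ab* peaks of 500 bp or more (83.6%) lay over a long region, against 7.72% of the whole *scrib-+ab* list. Of the 67, 65 lay over an *ab* peak of some length, and this share was not counted for the whole list. These 67 are far longer than most of that list and so have more room to meet another interval. Neither share can be read apart from length.

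The 10 longest regions show both forms. The longest, at 2L 12003076 to 12005205 (2130 bp), had *scrib-+ab* peaks of 540 and 938 bp, parted by 44 bp, and its first 570 bp had none. The region at 2R 9450656 to 9452449 (1794 bp) had peaks of 330 and 1188 bp, and that at X 12645422 to 12647060 (1639 bp) had 3 peaks of 476, 365 and 665 bp, which left little uncovered (91.3% covered). A single *scrib-+ab* peak of 1206 bp covered 93.3% of the region at 2L 12005373 to 12006665 (1293 bp). By contrast, the region at 3L 21246365 to 21247789 (1425 bp) had 1 peak of 559 bp in its second part and was covered over 39.2%. The region at 2R 13688906 to 13690179 (1274 bp) was split among 6 *scrib-+ab* peaks of 39 to 334 bp, and that at 3R 22359815 to 22361043 (1229 bp) among 5 of 61 to 202 bp, covering 65.1% and 45.6%. The only other region with 6 was at 3L 8817578 to 8818768 (1191 bp), covered over 42.8%.

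**Figure D4:**
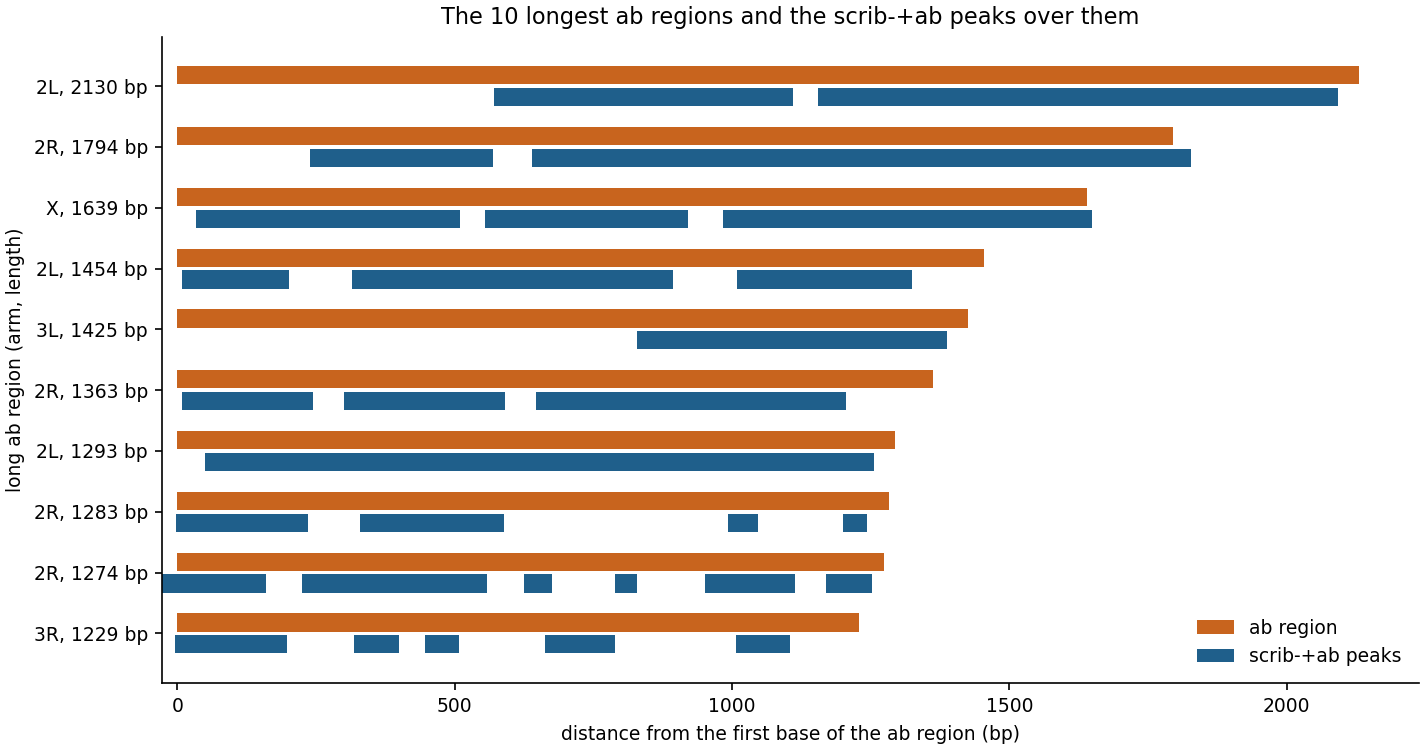
The 10 longest ab regions (orange), from 2130 bp to 1229 bp, with the scrib-+ab peaks that share bp with each (blue), drawn to scale in bp from the first base of the ab region. The region of 1293 bp lies under 1 scrib-+ab peak, while those of 1274 and 1229 bp lie under 6 and 5 separate ones.

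The 16 long regions with no *scrib-+ab* peak spanned 500 to 739 bp. For 6 of them an *scrib-+ab* peak lay within 500 bp, the nearest at 104 bp, in the intron of *Blimp-1*. The pair on X that lay 59 bp apart (739 and 640 bp) had no *scrib-+ab* peak within 28503 bp. Another pair, on 3R at 23026777 to 23027319 and 23027532 to 23028131, had none within 1666 bp. The region at 2L 15911330 to 15912007 (678 bp) was the most isolated of all long regions, 137771 bp from any other *ab* peak and 132953 bp from an *scrib-+ab* peak. The region at 2L 18463875 to 18464512 (638 bp) stood at place 10 of its arm's deposited list, whose first entries are long peaks, and still had no *scrib-+ab* peak within 3103 bp.

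Long regions were assigned to genes with the models drawn in 70 browser panels that the study published, which are drawn at 1.79 to 128 bp per pixel (median 17.5). The panels show genes that the study picked, in part for their Ab peaks in these libraries, so the counts below describe that list and say nothing of other genes. Of the 70 genes, 23 (32.9%) had a long region that shared at least 1 bp with the promoter region, the 500 bp upstream of a start site, or with an intron, and for another 4 a long region lay elsewhere in the drawn window. The windows held 42 of the 425 long regions (9.88%), which is 8.94% of the 470 *ab* peaks in them, and the other 383 long regions were not assigned to a gene from panels. Of these 42, 11 touched a promoter region, 27 an intron and 11 an exon, 20 lay within introns alone, and 8 lay outside the gene as drawn or upstream of its promoter region. All but 1 met an *scrib-+ab* peak and 28 met at least 2. Their medians of length and cover were 639.5 bp and 55.2%, against 611 bp and 58.4% for the remaining long regions. In the 43 windows without one, the longest *ab* peak had a median of 253 bp and reached 475 bp, at *ftz-f1*. That median takes *da*, *odd*, *Pcl* and *Su(H)* as 0 bp, because their windows held no *ab* peak.

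Among 11 ecdysone-response genes with a panel, 4 held a long region, close to the share of all panel genes (23 of 70, 32.9%). The count of each group below is to be read beside that share, and no group was tested against it. Ecdysone is the steroid hormone that times moulting and metamorphosis. *br*, an early ecdysone-induced gene that itself encodes BTB-zinc finger factors, had a pair of them in introns on X. The first, at 1472048 to 1472740 (693 bp), met *scrib-+ab* peaks of 44, 209, 37 and 109 bp, and the second, at 1510764 to 1511296 (533 bp), met peaks of 59 and 363 bp and was covered over 79.2%. *E23*, an ecdysone-induced ABC transporter, had neighbouring intron regions on 2L at 3345629 to 3346272 (644 bp) and 3346379 to 3346902 (524 bp), 106 bp apart. The first of these was covered over 52.2% and the second over 17.2%. *Hr39*, a nuclear receptor, had a region of 951 bp at 2L 21237153 to 21238103 that spanned a drawn start site, and 5 *scrib-+ab* peaks of up to 126 bp lay over it. *Blimp-1*, a zinc finger repressor, had an intron region of 662 bp at 3L 5626102 to 5626763. It was the single panel region without an *scrib-+ab* peak, and the most isolated from other long regions on 3L, 905852 bp from the next.

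Polycomb genes, whose products keep genes silent through development, held 5 long regions in promoter regions or introns. These lay at 3 of the 5 genes with a panel, beside 32.9% of all panel genes. *Psc*, *ph-p* and *ph-d* encode subunits of the Polycomb repressive complex that acts on nucleosomes. At *Psc* on 2R, a region of 700 bp (8867008 to 8867707) touched an intron and an exon, and a region of 647 bp (8868009 to 8868655) spanned the start site. Further regions of 677 bp (8871994 to 8872670) and 500 bp (8878352 to 8878851) lay upstream, about 3.52 kb and 9.88 kb from the nearest drawn start site, and a region of 610 bp at 8883664 closed the run of 5 over 17.3 kb. Cover over these 5 was 63%, 32.9%, 40.5%, 46.8% and 86.4%. *ph-p* and *ph-d* are neighbouring near-copies on X, so that reads from either could be placed at the other. *ph-p* had an intron region of 660 bp (2028676 to 2029335), covered over 93%, and a promoter region of 705 bp (2031161 to 2031865) under an *scrib-+ab* peak of 1157 bp. The region of *ph-d* (2017625 to 2018180, 556 bp) touched its promoter region with the last bases only, the nearest edge lying about 445 bp from the start site. *Pc* and *Pcl* had none.

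BTB genes held 9 long regions at 4 of 10 genes, beside 32.9% of all panel genes. Those of *br* are counted again here, and 6 remain without those at *Trl*, which overlap another drawn gene. *psq* and *Trl* encode factors that bind GA-repeat DNA, *Trl* being the gene of GAGA factor. At *psq* on 2R there were 3, at 6451815 to 6452620 (806 bp, intron), 6455951 to 6456774 (824 bp, spanning a start site) and 6469760 to 6470329 (570 bp, intron), and each met 2 or 3 *scrib-+ab* peaks. At *Trl* on 3L there were also 3, at 14748060 to 14748733 (674 bp), 14749380 to 14750017 (638 bp) and 14750091 to 14750880 (790 bp). Together these filled 2102 bp of 2.82 kb near the start of the gene, and cover was 48.1%, 58.5% and 41.1%. Because of the overlapping gene drawn there, they cannot be given to *Trl* alone. *fru*, a gene of sex determination in neurons, had an intron region of 511 bp at 3R 14299895 to 14300405 with 3 *scrib-+ab* peaks. The remaining 6, among them *chinmo*, *lola* and *mamo*, had none of this length.

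Notch-pathway genes held 4 long regions at 3 of 9 genes, close to the 32.9% of all panel genes. *Dl* and *Ser* encode the ligands of the Notch receptor. *Dl* had intron regions on 3R at 15136063 to 15136703 (641 bp) and 15139523 to 15140176 (654 bp), covered over 62.7% and 37.6%, and *Ser* had 1 at 23011549 to 23012160 (612 bp) with a single *scrib-+ab* peak of 422 bp. The *E(spl)* complex, a cluster of small genes that Notch activates, held a run of 5 long regions over 19 kb of 3R. One, at 21831523 to 21832547 (1025 bp), touched the promoter region and an exon of *HLHmβ*, a bHLH repressor, and met *scrib-+ab* peaks of 167 and 549 bp. A region near *m2* (21843744 to 21844299, 556 bp) and one near *HLHm3* (21846351 to 21846920, 570 bp) ended about 550 and 516 bp from the start sites, just beyond the limit of 500 bp. The other regions of this run, at 21827913 to 21829003 (1091 bp, 28% covered) and 21833880 to 21834646 (767 bp, 82% covered), lay outside the windows read.

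Hippo-pathway genes held 4 long regions in introns, at *ex* and *wts* of 3 genes, beside 32.9% of all panel genes. This pathway restrains tissue growth, *wts* being its kinase, *ft* an atypical cadherin upstream of it and *ex* both an upstream regulator and a target. At *ex* on 2L, 5 long regions made a run of 15.5 kb. The 3 in an intron, at 438867 to 439947 (1081 bp), 441238 to 441743 (506 bp) and 441797 to 442827 (1031 bp), were covered over 37.6%, 52% and 46.8%. The other regions, upstream of the promoter region at 427334 to 428058 (725 bp) and 429578 to 430623 (1046 bp), were covered over 83% and 91.2%, the second of them about 597 bp from the start site. The order of length and the order of cover thus differed within this gene. *wts* had an intron region of 566 bp at 3R 26620413 to 26620978, covered over 95.4% by 1 peak of 586 bp. At *ft*, a region of 788 bp (2L 4222265 to 4223052) lay about 4.39 kb upstream and was covered over 48.6%.

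Genes of eye and head fate held a long region at 3 of 9, close to the 32.9% of all panel genes, and those of antennal and appendage fate at 2 of 11. Among the former, *hth*, *dac* and *dan* had 1 each. *hth*, a homeodomain factor of progenitor cells, had an intron region of 565 bp (3R 6442565 to 6443129, 74.2% covered). *dac*, a nuclear factor of the retinal network, had a region of 545 bp across its start (2L 16485786 to 16486330, 60% covered). The region of *dan*, a factor of antennal identity, lay in its promoter region (3R 21010120 to 21010658, 539 bp, 34% covered) and also within the drawn intron of another gene. Among the latter, *bowl* (2L 3771502 to 3772076, 575 bp) and *noc* (2L 14490431 to 14491059, 629 bp), both zinc finger genes, had 1 each, in both cases across a start site. The study also describes *hth*, *dac* and *dan* in the antenna and *noc* in the eye disc. The counts of the eye and antennal groups depend on where such genes are put and are not a contrast between the tissues. The Hox genes *Antp* and *lab* and 4 genes of cell cycle and growth had none.

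Of 3 genes each of cell death, of chromatin cofactors and of adhesion, migration and JNK targets, 1 in each group held a long region in its promoter region or an intron. *th*, the gene of the caspase inhibitor Diap1, had an intron region at 3L 16036397 to 16037028 (632 bp, 50.3% covered), and *skd*, a Mediator subunit, at 3L 21001069 to 21001625 (557 bp, 51.7%). *Mmp1*, a matrix metalloproteinase, had 1 across its start at 2R 20572477 to 20572999 (523 bp, 43%), 58298 bp from the next *ab* peak. *W*, *Buffy*, *dom*, *E(var)3-9* and *Pax* had none, with longest *ab* peaks of 382, 152, 173, 39 and 253 bp in their windows. At *scaf*, a target of JNK signalling, a region of 550 bp at 2R 1580650 to 1581199 lay about 1.43 kb upstream. Its *scrib-+ab* peak of 551 bp covered 99.5% of it, so that both samples gave nearly the same interval there.

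**Figure D5:**
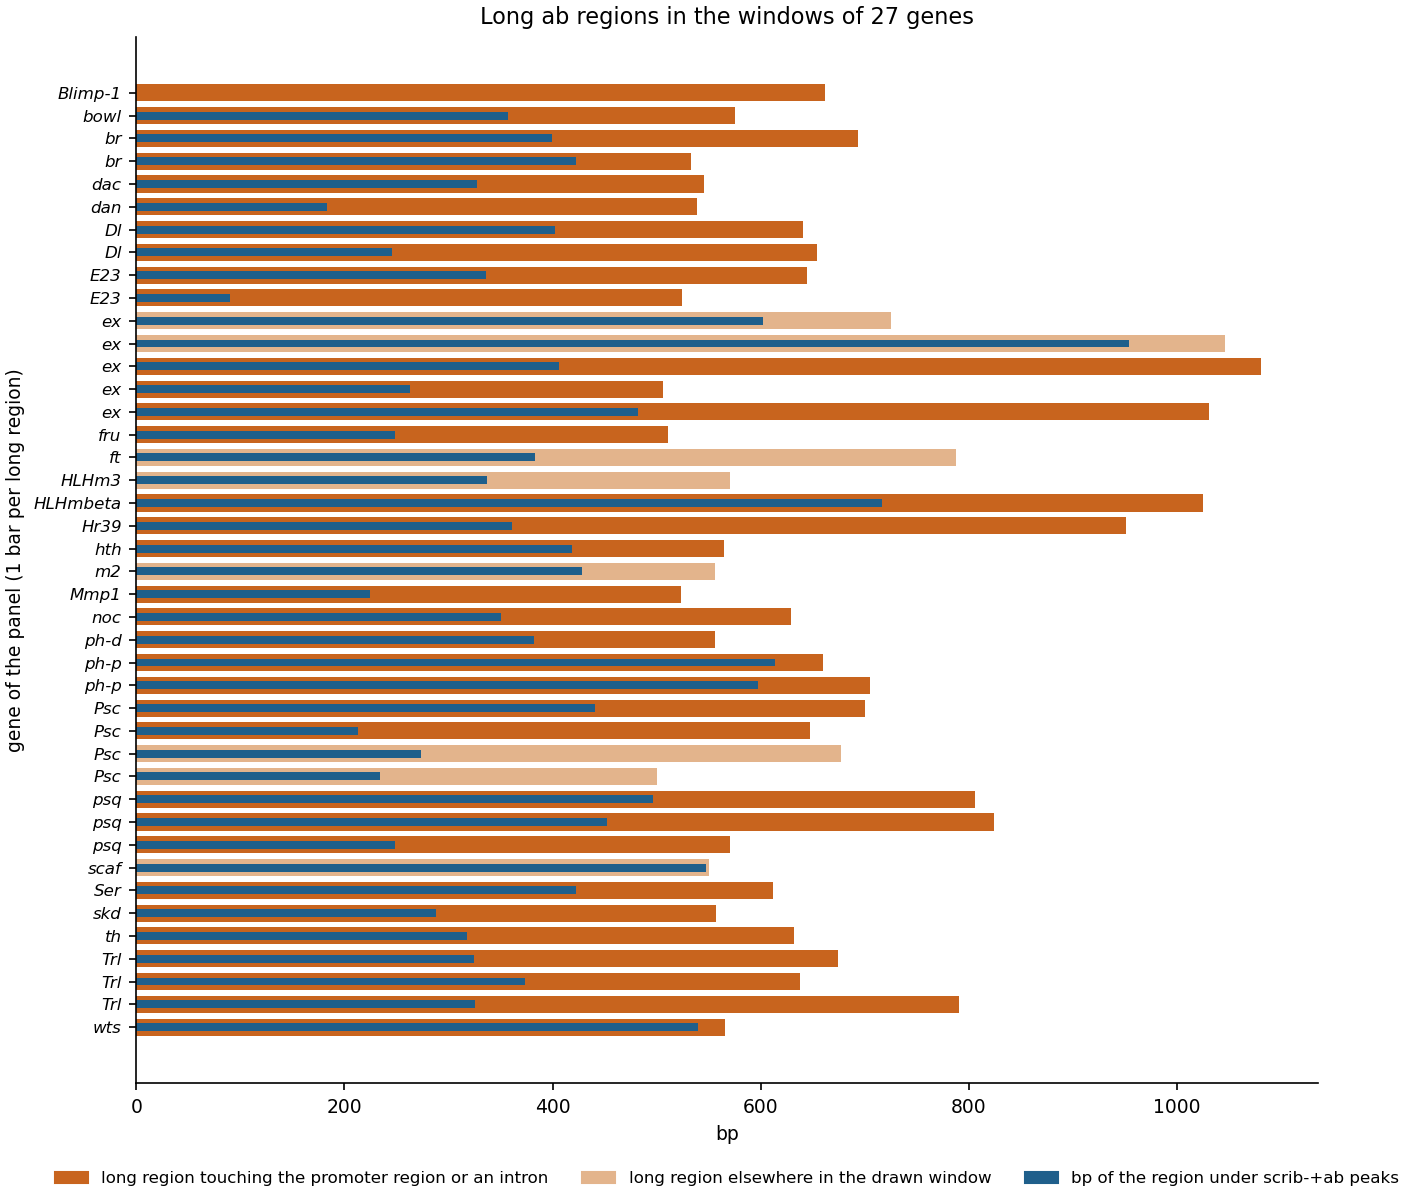
Length in bp of the 42 long ab regions in the windows of 27 genes (wide bars, orange where the region touches the promoter region or an intron and pale where it lies elsewhere in the window), with the bp of each that lie under scrib-+ab peaks (narrow blue bars). The bar of Blimp-1 has no blue part, those of ex reach 1081 bp, and that of scaf is covered over 99.5%.

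A second way to place genes was the span of their array probe sets on dm3, from the study's list of 183 deregulated genes with more than 1 probe set, of which 179 could be placed on 1 of the 5 arms. Such a span runs from the first to the last aligned base of a gene. It met 22 long regions, at 13 genes, and 9 of these genes have no panel. The spans differ widely in length, and a longer one has more room to meet a region. All *ab* peaks in these spans were not counted, so these counts have no background share and do not mark the genes as rich in long regions. The regions at *jing*, *bbg* and *CG33967* lay between separate alignments, and those at *tutl* and *ps* began before the first aligned base. Such alignments give no start sites and no introns. *CG6854*, which RefSeq lists as *Ctps*, the gene of CTP synthase, spanned a run of 5 long regions on 3L, from 15094387 to 15101693. They measured 714, 976, 506, 590 and 541 bp, and the one of 506 bp was among the 16 without an *scrib-+ab* peak. *jing*, a zinc finger gene, spanned 3 on 2R, at 2401643 to 2402806 (1164 bp, 5 *scrib-+ab* peaks), 2417305 to 2417931 (627 bp) and 2450015 to 2450718 (704 bp). *pyd*, the fly ZO-1 of cell junctions, spanned 2 on 3R, of which that at 4752918 to 4753586 (669 bp) was the only long region covered over its whole length, by an *scrib-+ab* peak of 717 bp. The others had 1 each, of 776 bp at *Alh*, 767 bp at *CG3655*, 663 bp at *tutl*, 615 bp at *bbg*, 531 bp at *ps* and 508 bp at *CG33967*, the gene of Kibra, an upstream member of the Hippo pathway.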

How the data were processed

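Reads were aligned by the authors to dm3 with Bowtie at default settings, and peaks were called in each sample against its normalised input with PeakSeq (READLENGTH 40, MAXGAP 40, MINFDR 0.01, PVALTHRESH 0.0001). The score the authors deposited is a constant 1, so length was the only graded property of a peak. Alignment, filtering and calling could not be varied, and total reads per library were not in the lists.

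Starts were converted to positions counted from 1. Peaks overlapped where they shared at least 1 bp, and gaps were counted between facing edges. Overlap, cover, joining and gap counting were checked against exhaustive counts on simulated intervals. Gene models were read from published browser panels, and their start sites and exons carry an error of about 1 pixel. Probe set alignments were kept at 90% identity or more. Genes named were all panel genes with a long region in the drawn window, all probe-placed genes whose span meets one, and genes of the same groups without one. Regions named were the 10 longest, runs, those with most or no *scrib-+ab* peaks and those at the 500 bp limit. The members and lists were chosen with earlier results of these data known. Input libraries, read maps and arrays were not analysed here. Python 3.11.15, NumPy 2.4.6, pandas, SciPy 1.17.1 and Matplotlib 3.10.9 were used.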

Additional observations from a re-analysis of the deposited data

How the results depend on the processing

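No paired analysis was possible because each genotype has 1 pull-down library, and for the same reason no replicate could be left out. Of 24 alternatives, 13 left the result within its interval or, for a count, within 1.5 times its value. These 13 include the joins of *ab* and of *scrib-+ab* peaks across 40 bp, which could change nothing because no gap was that short. They also include the rise of the panel gene count from 23 to 33 with a minimum of 400 bp. The tally is therefore no measure of robustness. The number of long regions was 828 with a minimum of 400 bp, 91 with 750 bp, and 731 with *ab* peaks joined across gaps of up to 100 bp. Joining them across 40 bp had to leave it at 425, because their smallest gap was 41 bp. The share with an *scrib-+ab* peak was 61.9% if at least 50% of the region had to be covered and 100% for regions of 750 bp or more. The share with 2 or more *scrib-+ab* peaks was 30.8% with *scrib-+ab* peaks joined across gaps of up to 100 bp and 60.9% without those under 40 bp, so the split into several peaks rests largely on gaps under 100 bp. The covered share of bp was 62.5% with that joining and 60.6% for regions of 750 bp or more. The share with another long region nearby was 38.6% within 5 kb and 53.2% within 20 kb. The number of panel genes stayed between 22 and 33 over its alternatives. It lost *ph-d* when the midpoint of the region was used, and gained *HLHm3* and *m2* with a promoter region of 1000 bp. The study states nearly equal read totals for both pull-down libraries, but the lists hold no reads, so the depth behind a single region is not known.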

Other observations

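Within an arm the deposited peaks do not follow position, and the long regions stood near the front of each arm's *ab* list. Of the 425, 362 (85.2%) were in the first 10% of their arm's list, with a median place at 4.29% of it, and the first entry was a long region on all 5 arms. Only 1 long region was in the second part of its list, at X 8188966 to 8189577 (612 bp), which stood at place 1615, or 90.8% of the way down, with 2 *scrib-+ab* peaks over it. The files do not state what the order is, and length and place are measures from the same calls.

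Outside the genes above, the run on 3R from 12060700 to 12080203 differed within itself. Its first region, of 1062 bp, was first in its arm's list and 97.7% covered by *scrib-+ab* peaks, and its last, of 536 bp, stood at place 318 and was 18.7% covered. In the run on X from 12629786, all 5 regions were covered over 67.9 to 91.3%. It had 23 *scrib-+ab* peaks over its 18.7 kb, the highest count of any run. The run from 2L 12003076 to 12012811 had 10 over 9.74 kb, and the run at *Trl* had 8 over 2.82 kb. These counts grow with the span of a run, so they do not rank runs by the density of peaks.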
